A study of Mus musculus with 4 samples.

Results

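Integrin subunits and cadherins were followed across mouse embryonic fibroblasts (MEFs, a primary culture from embryos) that had or lacked FAN and were left untreated or exposed to tumour necrosis factor (TNF). They were chosen by gene symbol. Of 31 listed genes, 30 had at least 1 probe set that named only that gene, 20 of them integrin subunits and 10 cadherins, out of 18193 genes in all. These 30 genes were covered by 74 of the 34945 probe sets that named a single gene. Expression of Itga11 was not analysed here.

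The cells were of C57BL/6 background and either FAN +/+ (wild type) or FAN -/- (knockout). FAN is the product of Nsmaf, an adaptor that binds the TNF receptor. Untreated cells of each genotype spent 24 h in medium without serum, and treated cells spent 8 h without serum and a further 16 h with 50 ng/ml TNF, still without serum. Total RNA of each of these 4 conditions went to 1 Affymetrix whole-genome mouse array, so no condition had a replicate. The number of embryos or cultures behind an array, and the part of Nsmaf that was deleted, are not given in the sources used here. The titles, which match the source names, set the groups. For 2 arrays, the TNF-treated FAN +/+ and the untreated FAN -/- one, the label's genotype field says the opposite of the title.

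Integrins are membrane receptors built of an alpha and a beta chain, and the pair sets which matrix protein is bound. In fibroblasts they hold the cell to fibronectin, collagen and laminin and connect these to actin through talin, kindlin and other adaptors. Cadherins join neighbouring cells through calcium-dependent binding of like molecules, and catenins connect them to actin. Cdh2 (N-cadherin) and Cdh11 are the cadherins best known from mesenchymal cells, whereas Cdh1 (E-cadherin) belongs to epithelium and Cdh5 to endothelium.

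Deposited values are on a log2 scale, and a floor was set at the median of all of them (log2 6.27), under which values were not taken as measured. Array medians were 6.21 to 6.30, and 49.2% to 50.5% of probe sets lay above the floor. Nsmaf had log2 values of 8.95 and 8.55 on the wild-type arrays against 7.91 and 7.48 on the knockout arrays, so its direction goes with the titles. Of 10 fibroblast markers, all were above the floor on at least 1 array. Ptprc, Cd68 and 4 other leukocyte markers of 10 never were, nor were Pecam1 and 4 others of 9 endothelial markers, although the epithelial marker Epcam had log2 values of 9.05 to 9.25. In such bulk RNA, fewer cells of a type and less RNA per cell cannot be told apart.

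Differences between 2 single arrays are given as values, with "higher" and "lower" describing those arrays. The words "rose" and "fell" are kept for genes that passed a limma fit with additive genotype and TNF terms, run on 11817 genes, in which each genotype and each treatment has 2 arrays. Its error term is how far the TNF difference departs between the genotypes, with 1 residual degree of freedom, so its p-values speak of these 4 arrays.

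Of the 30 genes, 21 lay above the floor on at least 1 array and all 21 of these entered the limma fit, Itgb8 only through its wild-type arrays. The 9 that never did were Itga4, the leukocyte subunits Itgal, Itgam and Itgb2, the epithelial Itgb6, and Cdh1, Cdh4, Cdh5 and Cdh8. Their highest value on any array was log2 6.25. Itga2, Itga7, Itga9 and Itgb7 stayed within 6.29 and 6.95 on all arrays and so just above the floor. In the wild-type cells Itgb4 and Itgb8 were above the floor, and in knockout cells Itgb8 was not.

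**Figure D1:**
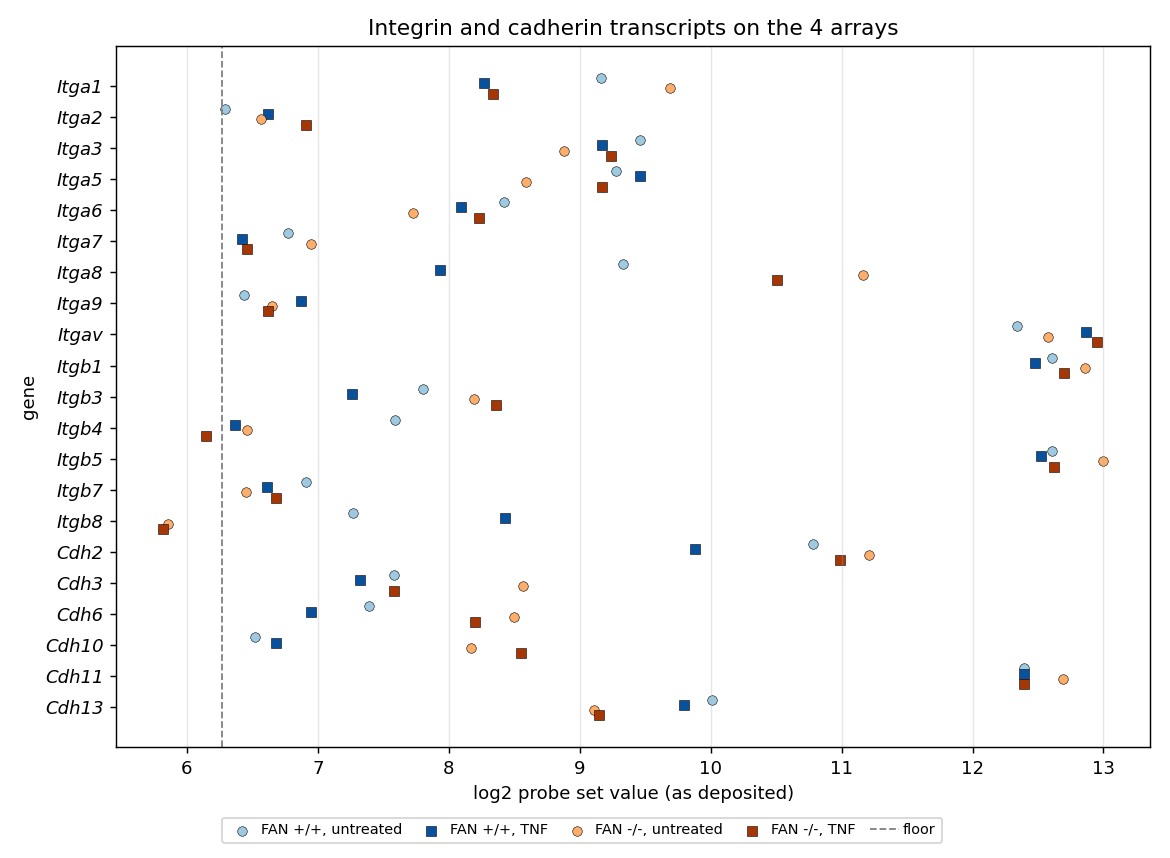
Log2 probe set values (x axis) of the 21 integrin and cadherin genes above the floor (dashed line, log2 6.27), with 1 point per array and no error bars since each condition has 1 array. Circles are untreated and squares TNF-treated cells, blue wild type and orange to brown knockout; positions can be compared within a gene but not between genes, whose probes differ. Itga8, Cdh6 and Cdh10 have both knockout points to the right of both wild-type points, and Cdh13 and Itgb8 have them to the left.

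Between genotypes, 3 of the 21 genes rose in cells without FAN, the integrin subunit Itga8 and the cadherins Cdh10 and Cdh6, and 1 fell, the cadherin Cdh13 (additive limma, Benjamini-Hochberg adjusted p under 0.05). Over the 11817 genes tested, 2.94% rose and 3.67% fell between genotypes. The median genotype difference was 0.16 log2 for the 21 genes and -0.01 for all genes tested. With both knockout arrays on the same side of both wild-type arrays, 8 of the 21 genes were higher and 3 lower, beside 23.9% and 24.1% of all genes. The 8 were Itga8, Cdh10, Cdh6, Cdh2, Itgb1, Itgb3, Itgb5 and Cdh11, the last 2 by near ties. For Itgb5 the signal was 6291 in treated knockout against 6257 in untreated wild-type cells. For Cdh11 it was 5374 in treated knockout against 5370 in treated wild-type cells. Itgb8 is 1 of the 3 lower genes, with knockout values under the floor. At least 2-fold apart without TNF were 3 genes higher in knockout cells (1.48% of all genes) and 1 lower (2.96%). With TNF there were 5 higher (1.58%) and 1 lower (2.7%).

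Itga8 encodes an alpha chain that pairs with beta1 and binds matrix proteins such as nephronectin and fibronectin through the RGD tripeptide. Its log2 values were 9.33 untreated and 7.93 with TNF in wild-type cells, and 11.16 and 10.51 in knockout cells. Both knockout arrays lay above both wild-type arrays, and within each genotype the treated array was the lower. Knockout cells were 3.57-fold higher without TNF and 5.98-fold higher with TNF. The limma genotype difference was 2.21 ± 0.20 log2 (SE, adjusted p = 0.015). A second probe set of Itga8 read 7.25, 6.31, 9.04 and 8.04 in the same order of arrays, which is 1.79 log2 higher in knockout cells without TNF and 1.73 higher with it.

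Cdh10 and Cdh6 are type II cadherins, a branch of the family known from neural and kidney development. For Cdh10 the wild-type values were log2 6.52 untreated and 6.68 with TNF, close to the floor, and the knockout values were 8.17 and 8.55. The knockout arrays were 3.14-fold higher without TNF and 3.66-fold higher with it (limma genotype difference 1.76 ± 0.12 log2 (SE), adjusted p = 0.0097). This rests on a single probe set, since a further probe set read 6.07 to 6.30 on the 4 arrays with no such gap and the other 2 stayed under the floor. Cdh6 read log2 7.39 and 6.95 on the wild-type arrays and 8.50 and 8.20 on the knockout arrays, untreated first. That is 2.15-fold higher without TNF and 2.37-fold higher with TNF, and limma gave 1.18 ± 0.12 log2 (SE, adjusted p = 0.017). The second Cdh6 probe set read 6.30 untreated and 5.69 with TNF in wild-type cells, and 8.53 and 7.83 in knockout cells. That is a wider gap of the same direction, but the treated wild-type value was under the floor and the untreated one close to it. With TNF the gap of this second probe set, 1.56 log2, is thus a bound. Both calls ended when the floor was raised to the 70th percentile of all values, where adjusted p was 0.063 for Cdh6 and 0.075 for Cdh10 and their wild-type values were no longer measured.

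Cdh6 and Cdh10 both lie on chromosome 15, in a run of cadherin genes that holds, in order, Cdh6, Cdh9, Cdh10, Cdh12 and Cdh18 in the RefSeq annotation. Cdh9 and Cdh18 had 1 probe set each and no value above log2 4.23 on any array. Cdh12 had no probe set that named it alone here. The higher knockout values were thus seen for 2 genes of the run, with both measured neighbours under the floor.

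Cdh13 (T-cadherin) is held to the membrane by a lipid anchor and has no cytoplasmic tail for catenins. Its log2 values were 10.01 and 9.80 in wild-type cells and 9.11 and 9.15 in knockout cells, untreated first. Both knockout arrays were below both wild-type arrays, by 1.87-fold without TNF and 1.57-fold with it. The genotype estimate was -0.78 ± 0.12 log2 (SE, limma adjusted p = 0.036). The 2 further Cdh13 probe sets above the floor differed by -0.69 and -0.81 without TNF and by -0.89 and -0.91 with TNF.

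**Figure D2:**
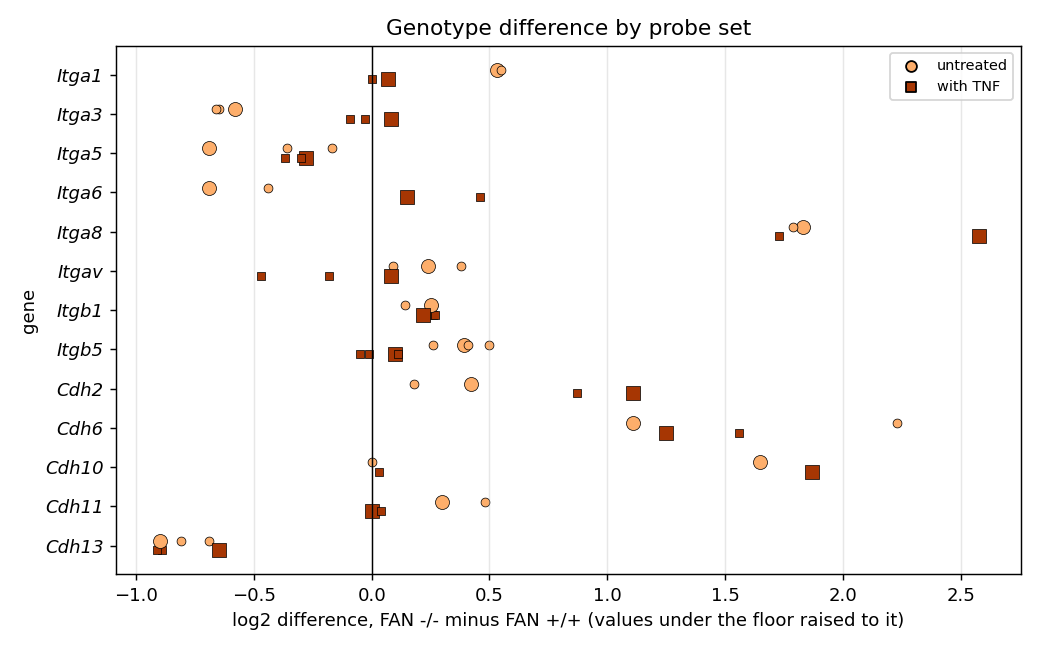
Genotype difference in log2 (x axis, knockout minus wild type) for each probe set above the floor on at least 1 array, in the 13 genes with more than 1 such probe set. Circles are untreated and squares TNF-treated cells, and the larger symbol is the probe set that stands for the gene; the probe sets of Itga8, Cdh6 and Cdh13 lie on the same side of 0, and the second one of Cdh10 lies at 0.

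Itgb8 encodes a beta chain that pairs with alpha-v and is known for activating latent TGF-beta. Its single probe set read log2 7.27 untreated and 8.43 with TNF in wild-type cells, and 5.86 and 5.82, both under the floor, in knockout cells. Against the floor, knockout cells were at least 2.00-fold lower without TNF (rounded, just short of the 2-fold limit) and at least 4.47-fold lower with TNF. Since it was measured in wild-type cells alone, these values are given as a description with no test. The wild-type arrays alone were 2.24-fold apart, the treated one higher.

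Of the other partners of alpha-v, Itgb6 was under the floor on all arrays, and Itgb3 had both knockout arrays above both wild-type arrays. Itgb3, the chain of the vitronectin receptor, had log2 values of 7.80 and 7.26 in wild-type cells and 8.19 and 8.36 in knockout cells, untreated first. It was 2.14-fold higher in knockout cells with TNF and 1.31-fold higher without (limma 0.74 ± 0.20 log2 (SE), adjusted p = 0.12). Itgb5, which also pairs with alpha-v, had values of 12.61 and 12.52 in wild-type and 13.00 and 12.62 in knockout cells (limma 0.25 ± 0.10 log2 (SE), adjusted p = 0.22). The untreated knockout array was its highest, and the other 3 lay within 0.10 log2 of each other. Itgb1, the beta chain shared by most fibroblast integrins, read 12.61 and 12.48 against 12.86 and 12.70 (0.23 ± 0.07, adjusted p = 0.15). Itga5, the fibronectin receptor chain, went the other way with 9.28 and 9.46 in wild-type and 8.59 and 9.17 in knockout cells (-0.49 ± 0.14, adjusted p = 0.14). For these genes the 4 arrays give differences under the test's threshold, with 95% intervals of 0.21 to 1.28 log2 for Itgb3, -0.01 to 0.51 for Itgb5, 0.04 to 0.42 for Itgb1 and -0.86 to -0.11 for Itga5, before adjustment over genes.

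Among type I cadherins, Cdh2 read log2 10.78 and 9.88 in wild-type cells and 11.21 and 10.99 in knockout cells, untreated first. All 4 arrays were thus well above the floor, and the knockout arrays were the higher ones by 1.34-fold without TNF and 2.16-fold with it. Limma gave 0.77 ± 0.18 log2 (SE, adjusted p = 0.093), and the second probe set read 10.27, 9.39, 10.45 and 10.26 in the same listing of arrays. There the TNF-treated knockout array was not above the untreated wild-type one. Cdh3 (P-cadherin), an epithelial cadherin of skin and its appendages, read 7.58 and 7.32 in wild-type cells and 8.57 and 7.58 in knockout cells, so the untreated knockout array stood apart from the other 3. Cdh11, the mesenchymal cadherin, had 12.39 on 3 arrays and 12.69 on the untreated knockout array (limma 0.15 ± 0.10 log2 (SE), adjusted p = 0.43).

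**Figure D3:**
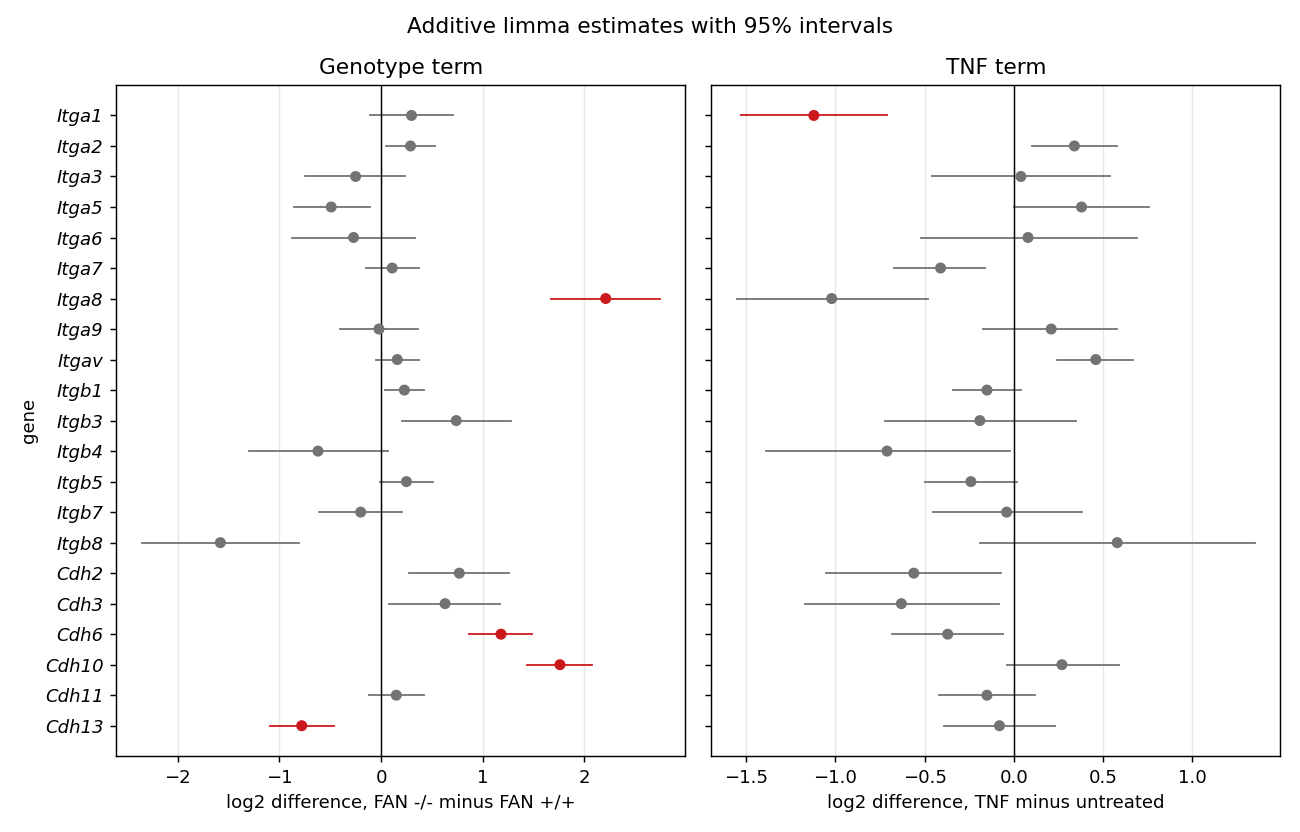
Additive limma estimates (x axes, log2 difference) with 95% intervals not adjusted over genes, for the genotype term (left) and the TNF term (right) in the 21 genes tested. Red marks an adjusted p under 0.05: Itga8, Cdh6 and Cdh10 to the right of 0 and Cdh13 to the left for genotype, and Itga1 to the left of 0 for TNF. Itgb8 is drawn from its wild-type values and the floor, so its estimates and intervals are not read as a test.

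Promoter windows are shown for the 3 genes that rose in knockout cells and for Itgb8, which was under the floor there. They are from RefSeq (GRCm38.p6) and reach from 250 bases before to 50 bases after the annotated start, read 5′ to 3′ on the gene's strand. The Itga8 window is chr2:12301895-12302194 (minus strand), that of Cdh6 chr15:13173626-13173925 (minus), that of Cdh10 chr15:18820079-18820378 (plus) and that of Itgb8 chr12:119238227-119238526 (minus). Capitals mark a motif match.
Itga8: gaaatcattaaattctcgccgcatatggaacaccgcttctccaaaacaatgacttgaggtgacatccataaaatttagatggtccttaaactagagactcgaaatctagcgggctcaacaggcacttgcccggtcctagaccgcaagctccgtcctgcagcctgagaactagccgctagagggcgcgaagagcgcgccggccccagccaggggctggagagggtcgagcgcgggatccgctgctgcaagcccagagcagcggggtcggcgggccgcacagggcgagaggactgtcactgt
Cdh6: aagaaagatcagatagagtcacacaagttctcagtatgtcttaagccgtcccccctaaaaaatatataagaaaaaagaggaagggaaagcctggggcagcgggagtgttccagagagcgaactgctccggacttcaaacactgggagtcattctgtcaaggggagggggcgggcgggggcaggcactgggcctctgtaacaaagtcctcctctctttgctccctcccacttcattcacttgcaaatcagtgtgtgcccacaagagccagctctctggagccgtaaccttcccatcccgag
Cdh10: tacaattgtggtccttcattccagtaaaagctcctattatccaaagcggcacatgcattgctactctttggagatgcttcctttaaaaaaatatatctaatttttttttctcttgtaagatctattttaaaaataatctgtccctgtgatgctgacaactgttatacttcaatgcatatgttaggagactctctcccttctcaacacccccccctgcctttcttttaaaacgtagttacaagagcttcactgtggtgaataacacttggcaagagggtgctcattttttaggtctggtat
Itgb8: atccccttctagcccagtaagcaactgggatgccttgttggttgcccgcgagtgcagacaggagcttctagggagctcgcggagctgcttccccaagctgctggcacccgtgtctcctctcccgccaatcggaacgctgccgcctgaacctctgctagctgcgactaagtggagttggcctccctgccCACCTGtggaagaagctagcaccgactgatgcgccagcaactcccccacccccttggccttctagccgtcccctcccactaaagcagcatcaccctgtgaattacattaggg

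A search on both strands covered TATAAA, the AP-1 motif TGANTCA and CACCTG, an E-box that factors of the Snail and Zeb families bind. The only match in the 4 windows was CACCTG in that of Itgb8, shown in capitals, and no matches overlapped there. Among the 20 windows of the 18 listed genes in the promoter table, CACCTG was found in 6, against 20.2% of all 32851 windows of this length. TGANTCA was found in 2 (7.81% of all windows), in genes Itga3 and Itga9, and TATAAA in 0 (13.6%). GC content of the 4 printed windows ran from 37.7% for Cdh10 to 60.7% for Itgb8. A match is a string of letters and not a measured site.

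With TNF, Itga1 fell, and none of the 21 genes rose (limma with Benjamini-Hochberg adjustment; before adjustment, 3 had p under 0.05 as higher and 7 as lower, beside 8.2% and 10.6% of all genes). Over all genes tested, 1.57% rose and 1.14% fell. With both treated arrays on the same side of both untreated ones, 2 of the 21 genes were higher (18.3% of all genes) and 3 lower (19.6%). The median TNF difference was -0.15 log2 for the 21 genes and -0.02 for all genes tested. In wild-type cells 1 gene was at least 2-fold higher with TNF (2.26% of all genes) and 2 were lower (1.98%), and in knockout cells 0 were higher (1.38%) and 1 was lower (1.1%).

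Itga1 encodes the alpha chain of a collagen receptor with beta1. Its log2 values fell from 9.16 to 8.27 with TNF in wild-type cells and from 9.69 to 8.34 in knockout cells. Both treated arrays were below both untreated ones, by 1.85-fold and 2.55-fold. The limma TNF difference was -1.12 ± 0.15 log2 (SE, adjusted p = 0.047), and the second probe set went from 6.86 to 6.21 and from 7.41 to 6.09. Both treated values of the second probe set lie under the floor, so it was measured in untreated cells alone. The Itga1 call is a narrow one: adjusted p ran from 0.0028 to 0.49 over 10 alternatives, and 4 of them ended it. Itga2, the other collagen-binding chain measured among the listed genes, differed the other way without passing, by 0.34 ± 0.09 log2 (SE, adjusted p = 0.16) from values close to the floor. Itga10, a collagen-binding chain outside the listed genes, was lower with TNF and also missed the threshold (limma -0.61 ± 0.10 log2 (SE), adjusted p = 0.0625). It read 7.29 and 6.69 in wild-type and 7.34 and 6.71 in knockout cells, untreated first.

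Itga8 was lower with TNF in both genotypes, by 2.62-fold among wild-type and 1.56-fold among knockout arrays, but missed the threshold (limma -1.02 ± 0.20 log2 (SE), adjusted p = 0.09). Its second probe set passed (-0.97 log2, adjusted p = 0.0451) in a limma fit with the probe set as the unit, chosen after seeing the data. Itgav, the alpha chain of the vitronectin receptors, was higher with TNF, at log2 12.34 untreated and 12.87 treated in wild-type cells and 12.58 and 12.95 in knockout cells. Its limma difference of 0.46 ± 0.08 log2 (SE) also missed the threshold (adjusted p = 0.075). A second Itgav probe set read 8.83 and 10.08 in wild-type and 9.21 and 9.61 in knockout cells, so the size of the wild-type difference depended on the probe set. Cdh2 was 1.87-fold lower with TNF in wild-type cells and 1.16-fold lower in knockout cells (limma -0.56 ± 0.18 log2 (SE), adjusted p = 0.22). Cdh3 was lower by 1.20-fold in FAN +/+ and by 1.98-fold in FAN -/- cells (-0.63 ± 0.20, adjusted p = 0.22).

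The TNF difference was then set side by side in the 2 genotypes, where no degree of freedom is left for a test. Knockout minus wild type, this difference was 1 log2 or more for 1 gene, Itgb4 (0.794% of all genes), and -1 log2 or less for 1 gene, Itgb8 (0.818%). Both involve values at the floor, so these sizes are not fully measured. Itgb4, the beta chain that joins alpha6 in hemidesmosomes, read log2 7.59 untreated and 6.37 with TNF in wild-type cells, and 6.46 and 6.15 in knockout cells. The untreated wild-type array alone stood out. Itgb8 read 7.27 and 8.43 in wild-type cells and was under the floor on both knockout arrays.

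The laminin-binding chains Itga3 and Itga6 had TNF differences of opposite sign in the genotypes. Itga3 went from log2 9.46 to 9.17 with TNF in wild-type cells and from 8.88 to 9.24 in knockout cells, and Itga6 from 8.42 to 8.09 and from 7.73 to 8.23. On these probe sets the untreated knockout array was the lowest and the untreated wild-type array the highest. The second Itga6 probe set read 7.34 and 6.89 in wild-type and 6.90 and 7.35 in knockout cells, so there the 2 lower and the 2 higher arrays were nearly level. The third laminin-binding chain, Itga7, which is known from muscle, was lower with TNF in both genotypes, with 6.77 and 6.42 in wild-type and 6.95 and 6.46 in knockout cells.

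**Figure D4:**
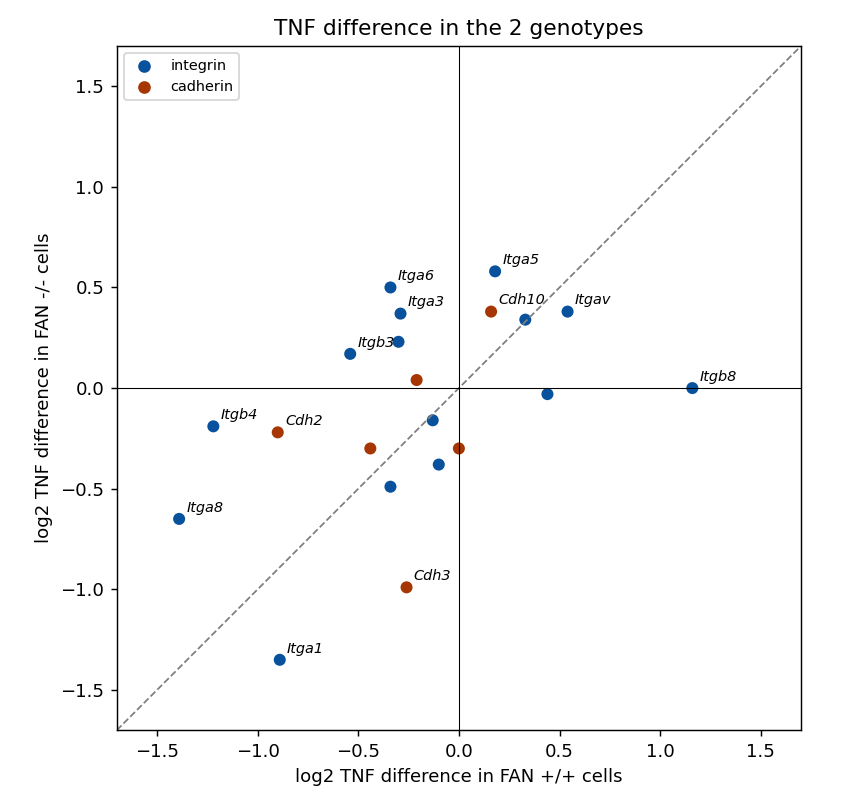
TNF difference in log2 in wild-type cells (x axis) against knockout cells (y axis), 1 point per gene for the 21 genes, blue integrins and brown cadherins, with the line of equal differences dashed. Itgb8 is drawn at 0 on the y axis because both knockout values lie under the floor; Itga3 and Itga6 lie in the upper left, Itgb4 and Itgb8 lie farthest from the line and Itga1 lies lowest.

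The proteins that work with these receptors were read from lists of related genes. Of 22 tested integrin adaptors and focal adhesion genes, 4 rose and 2 fell between genotypes (median 0.07 log2), beside 2.94% and 3.67% of all genes tested. Parvb, a parvin that binds integrin-linked kinase, rose by 1.48 ± 0.17 log2 (SE, limma adjusted p = 0.021), from 6.87 and 6.80 in wild-type to 8.08 and 8.55 in knockout cells. The focal adhesion protein gene Tns1 rose by 0.72 ± 0.09 and the tetraspanin gene Cd151, whose product binds laminin-binding integrins, by 0.69 ± 0.10. Cd9, another tetraspanin gene, was lower in knockout cells (-0.94 ± 0.10 log2, limma adjusted p = 0.019), as was Cd47 (-0.61 ± 0.08). With TNF, Cd47, which encodes an integrin-associated protein, rose by 0.88 ± 0.08 log2 (SE, adjusted p = 0.022) as the only gene of this list. Before adjustment, 2 of the 22 genes had a limma p under 0.05 as higher with TNF and 7 as lower, beside 8.2% and 10.6% of all genes.

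Integrin ligands were called in both directions. Between genotypes Col4a1 rose by 0.80 ± 0.08 log2 and the laminin chain gene Lama4 fell (-1.13 ± 0.10, limma adjusted p = 0.014), out of 18 tested with a median of 0.05. With TNF, Icam1 rose by 2.15 ± 0.09 and Vcam1 by 1.97 ± 0.17, while Postn (periostin) fell (-0.56 ± 0.08, limma adjusted p = 0.0497). Among the integrin chains that bind them, Itga4 (for Vcam1) and Itgb2 (for Icam1) were under the floor on all arrays. Itga9, grouped here with Itga4, was just above it, at log2 6.44 to 6.87. Fn1, encoding fibronectin, the main ligand of the Itga5 chain, read log2 14.23 on both wild-type arrays and 14.29 on both knockout arrays. These readings lie close to the highest value of any probe set (14.40).

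Of 12 tested catenins and junction adaptors, none passed for either term in limma, with medians of 0.19 for genotype and -0.23 for TNF. At an unadjusted p under 0.05, 3 were higher between genotypes and 3 lower with TNF. Over all genes tested, that limit was met between genotypes by 11.2% as higher and 13.3% as lower, and with TNF by 8.2% and 10.6%. Ctnnb1, encoding beta-catenin, read 13.11 and 12.95 in wild-type and 13.09 and 13.09 in knockout cells. Among 14 tested genes of the wider cadherin family, the giant cadherin gene Fat4 fell both between genotypes (-0.85 ± 0.10 log2, adjusted p = 0.023) and with TNF (-1.42 ± 0.10, adjusted p = 0.014). Cdh26 rose between genotypes by 0.74 ± 0.10. Its treated wild-type value (log2 6.25) was under the floor and the untreated one (6.34) just above it. Among 7 tested integrin, integrin-like and further cadherin genes outside the 31 listed genes, Cdh17 fell between genotypes (-1.26 ± 0.19, adjusted p = 0.036). It read log2 8.07 and 7.18 in wild-type and 6.46 and 5.66 in knockout cells, untreated first. The last value is under the floor, so the Cdh17 estimate rests in part on the floor. For TNF none of the 7 genes of that list passed (before adjustment 0 had p under 0.05 as higher and 3 as lower). Of 7 transcription factors linked to the switch between E- and N-cadherin, Snai2 (-1.16 ± 0.13, adjusted p = 0.021) and Twist1 (-1.04 ± 0.11, adjusted p = 0.018) fell between genotypes. Without passing, Twist2 (0.77) and Snai3 (0.14) were higher, and Zeb2 (-0.38), Zeb1 (-0.35) and Snai1 (-0.03) lower. For TNF none of the 7 passed in limma (before adjustment 1 had p under 0.05 as higher and 2 as lower).

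Markers of cell types also differed between the genotypes, beside the receptor genes above. Among 10 tested fibroblast markers, Lum (-4.97 ± 0.48 log2, limma adjusted p = 0.016), Dcn (-1.64) and Pdgfra (-1.62) fell in knockout cells. The others did not pass: Thy1 (0.50), Pdgfrb (0.16) and Vim (0.04) were higher, and Col3a1 (-0.47), Col1a1 (-0.26), Fap (-0.07) and Col1a2 (-0.05) lower. The summed signal of the 10 fibroblast markers was 93246 and 93530 on wild-type and 77388 and 64332 on knockout arrays. Nes (1.06) and Tubb3 (1.24) rose among 3 tested neural markers, with Gfap and Elavl4 under the floor. Tubb3 was under the floor on the untreated wild-type array (log2 6.02) and close to it on the treated one (6.37). Sox2 read log2 7.31 and 5.81 in wild-type and 3.58 and 3.71 in knockout cells, above the floor on the untreated wild-type array alone, so it was not tested. The neural markers had summed signals of 857 to 874 on wild-type against 1237 to 1643 on knockout arrays. Des rose by 0.76 among 2 tested muscle markers, with Myod1, Myog and 3 others under the floor and sums of 459 to 770 against 752 to 1055. Ppbp (-2.93) fell among 4 platelet markers, from log2 9.81 and 9.98 on wild-type to 7.01 and 6.92 on knockout arrays. Gp9 (0.28) was higher and Itga2b (-0.15) and Gp1bb (-0.14) lower without passing, with Pf4 under the floor. The platelet sums were 1604 to 1666 against 755 to 800. None passed among 4 leukocyte (sums of 812 to 1071 against 1088 to 1615), 4 endothelial (818 to 872 against 820) and 6 epithelial markers (1240 to 1342 against 1387 to 1413). At an unadjusted p under 0.05 the limma counts for genotype in these 3 lists were 1, 0 and 2 higher and 0 lower. Over all genes tested, 11.2% were higher and 13.3% lower at that limit. The leukocyte markers Lyz2 and Csf1r were 1.71 and 1.30 log2 higher in knockout cells without TNF. With TNF these differences were -0.16 and 0.03. With TNF the fibroblast marker Thy1 fell (-0.82 ± 0.12, adjusted p = 0.0498). The part of these markers in the integrin and cadherin differences was not tested.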

How the data were processed

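Total RNA of 4 conditions was measured on 4 Affymetrix arrays. As judged from their range (2.79 to 14.40), the deposited values are on a log2 scale. MAS5 is named in the submitters' processing notes, without version, and the authors' way of summarising, scaling or filtering probe sets is unknown from the labels. Of 45101 probe sets, 34945 pair with 1 gene and were used, 932 with several and 9160 with none; 64 are controls. Entrez identifiers of 34741 matched the RefSeq table (GRCm38.p6, for symbols and neighbours).

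Values under the 50th percentile were raised to it (log2 6.27, signal 77.0). A gene is its probe set of highest mean. Differences of at least 1 log2 count as 2-fold, and a fold against the floor is a bound. Limma 3.58.1 (R 4.3.3) fitted genotype and TNF additively to genes with 2 or more arrays above the floor, with an intensity trend (prior degrees of freedom 3.52) and Benjamini-Hochberg adjustment at 0.05, and was tested on simulated data. Labels name no separate cultures, and no condition has a replicate array. The p-values rest on how far the TNF difference departs between the genotypes and on a prior from all genes tested. That departure may be technical or real, which cannot be told apart here, and the number of arrays limits precision.

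Named genes are the 31 members, with array values for those past limma or 2-fold apart and for Itgb1, Itgav, Itga5, Cdh2 and Cdh11, and up to 4 genes per list and term past limma. Nsmaf, Itga2, Itga3, Itga6, Itga7, Itga10, Cdh3, Itgb5, Fn1 and Ctnnb1 were named after their values were seen. So were the cell type markers given, the cadherins of chromosome 15 and the cadherin-switch factors that did not pass. Members and lists were chosen with earlier results of these data known. Alternatives were other floors, normalizations, probe set rules, priors and filters.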

Additional observations from a re-analysis of the deposited data

Results flagged for a closer look

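The TNF differences of Itga3 and Itga6, both laminin-binding integrin chains, had opposite signs in the genotypes, each of at least 0.25 log2. For Itga3 the difference was -0.29 in wild-type and 0.37 in knockout cells, so the knockout value was 0.65 higher. The 2 further Itga3 probe sets gave 0.61 and 0.57. For Itga6 the difference was -0.34 in wild-type and 0.50 in knockout cells, so the knockout value was 0.84 higher, and its second probe set gave 0.89. Probe sets of a gene share the array, each value is 1 array, and the difference was not tested.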

How the results depend on the processing

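No paired analysis was possible because each condition has 1 array and the labels give no replicate numbers. Leaving out an array was not run, since the additive fit would keep no residual degree of freedom. The main counts were 4 genes past limma for genotype and 1 for TNF. At least 2-fold apart were 3 genes for TNF in wild-type cells, 1 for TNF in knockout cells, 4 between untreated genotypes, 6 between genotypes with TNF and 2 for the difference of TNF responses.

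With the floor at the 70th percentile these counts became 2, 3, 1, 1, 1, 2 and 0, in the same order, with the count for TNF in knockout cells alone not moved by over 1.5 times. Fewer genes were measured there. With the floor at the 30th percentile the TNF count in limma was 0 and the count for the difference of responses 1, which was also 1 with log2(value + 16) and no floor. Quantile normalization gave 2 genes for TNF in knockout cells, Cdh3 being the added one. Centring each array on its median gave 7 for genotype and 4 for TNF, holding all calls of the main fit, and the cause was not tested. Itgb8, above the main floor in wild-type cells alone, is 1 of those 7. It was also the added gene where the genotype count was 5, with the 30th percentile floor, with no floor and with quantile normalization. These calls of Itgb8 are not read as a test. The TNF count in limma was 0 with the mean of all probe sets, and 0 with the probe set as the unit of the fit, an alternative chosen after seeing the data that counts each gene's probe set of highest mean. The second Itga8 probe set passed for TNF there (-0.97 log2, adjusted p = 0.0451). With all 18193 genes in the fit, those at the floor on every array have no spread, the prior degrees of freedom went from 3.52 to 0.905, and both limma counts were 0. No direction of a called gene was reversed by any alternative run. The genotype calls of Itga8 and Cdh13 held in 9 of 10 alternatives, and those of Cdh6 and Cdh10 in 8 of 10.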
